A study of Silurus meridionalis with 18 samples.

Results

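Ictacalcins and protein S100-A11 are small calcium-binding proteins of the S100 family, described here by their messenger RNA in 18 tissues of the southern catfish, Silurus meridionalis. Of 25390 gene models in the deposited table, 6 were taken. The 3 listed at the outset were the ictacalcins C0J45_03742 and C0J45_03739 and S100-A11 (C0J45_23274), selected on their FPKM in these same libraries, high in epithelial tissues. The other 3 (C0J45_03740, C0J45_03741 and C0J45_16949) were added because their product name is ictacalcin. High levels in epithelia are therefore a description of how the listed genes were found, and no test supports them.

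The fish were adults from a benthic (bottom) habitat, given no treatment that the labels name, with no genotype, sex or number of animals given. The libraries were Skin, Maxillary_barbel, Mandibular_barbel, Gill, Intestine, Kidney, Head_kidney, Spleen, Liver, Pancreas, Heart, Muscle, Testis, Ovary, Brain, Telecephlon (as the labels spell it), Olfactory_bulb and Retina. Each tissue was 1 library, so nothing measured the spread within a tissue, and no p-value or error is given. Levels are in FPKM as the authors deposited them, that is, fragments scaled to gene length and to library depth, so levels of different genes are compared per length. Differences are log2 ratios of FPKM + 1. As a yardstick for a small difference, 97.1% of the 6538 genes that reached an FPKM of 10 in a barbel differed by less than 1 on that scale between the 2 barbel libraries. The SD of those differences was 0.42. The barbels are like tissues, not replicates.

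S100 proteins are short proteins with a pair of EF-hand calcium-binding loops. They usually work as dimers that expose a binding surface when calcium rises, and annexins, which bind membranes in a calcium-dependent way, are among their best known partners. Ictacalcin was named in channel catfish and belongs to a fish branch of the family known from epithelia, while S100-A11 is known in mammals from epidermal cells, where it binds annexin A1. Gill and barbel epithelia face the water directly, and the catfish barbel carries taste buds.

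Of the 5 ictacalcin models, 4 lay side by side on the minus strand of chromosome 4 within 58.0 kb, on the coordinates of the deposited feature table, whose build is not given in the sources used here. C0J45_03739 ran from 4193886 to 4194300, C0J45_03740 from 4201995 to 4202409, C0J45_03741 from 4207704 to 4211912 and C0J45_03742 from 4232522 to 4251935. The first and second of these had the same structure to the base, with coding exons of 138 and 147 bp around an intron of 130 bp. C0J45_03741 was a short model of 198 coding bp in 3 exons. It carried no match to the S100-type calcium-binding subdomain that C0J45_03742, C0J45_03739, C0J45_03740 and C0J45_16949 carried. C0J45_03742 had 4 coding exons of 435 bp in all, and an intron of 17563 bp after its opening exon. Copies of like structure can share reads, so a level of C0J45_03740 apart from C0J45_03739 is uncertain.

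**Figure D1:**
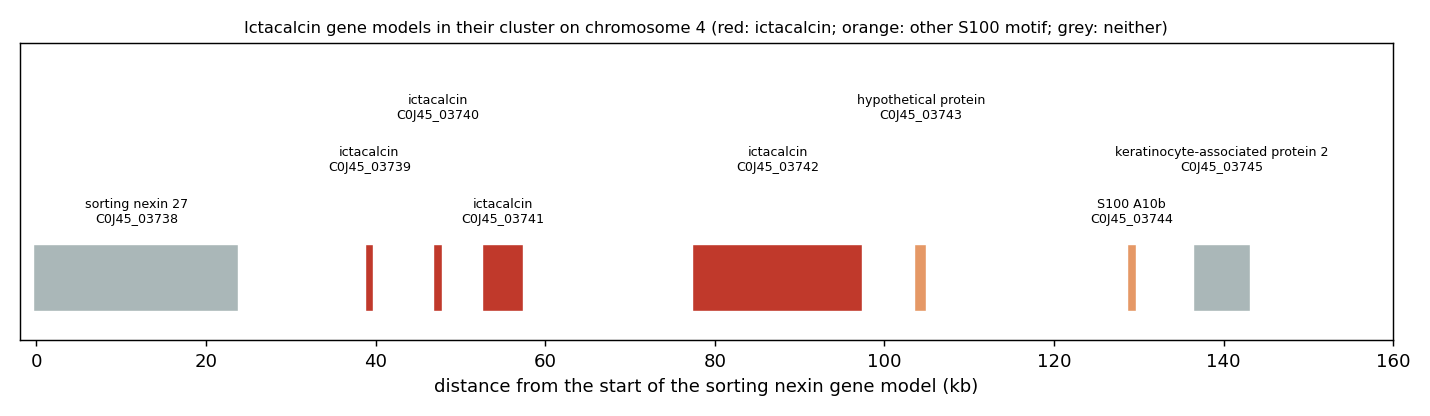
Gene models of the ictacalcin cluster drawn to scale against distance in kb from the start of the sorting nexin 27 model. The 4 ictacalcins (red) lie between sorting nexin 27 and further S100-type models (orange), C0J45_03743 and S100 calcium binding protein A10b (C0J45_03744), with keratinocyte-associated protein 2 beyond them.

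The cluster's neighbours were sorting nexin family member 27 on one side and, on the other, the unnamed S100-type model C0J45_03743, S100 calcium binding protein A10b (C0J45_03744) and keratinocyte-associated protein 2. In RefSeq's annotation of another assembly of the species (ASM1480568v1), 2 protein-coding genes without a symbol lie between snx27b and s100w. Which deposited model corresponds to s100w was not determined, so that count cannot be set against the 4 ictacalcins. The fifth ictacalcin, C0J45_16949, stood alone on chromosome 19 from 4614955 to 4616361. Its protein also matched the S100-B family signature, which the chromosome 4 copies did not. Its Swiss-Prot reference was not the one that those copies shared, so it is called an ictacalcin here by product name only. S100-A11 (C0J45_23274) lay on chromosome 29 from 3479096 to 3479553, directly before S100 calcium binding protein U (C0J45_23275) and S100 calcium binding protein S (C0J45_23276).

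Depth bears on the low values. The most frequent small value, read as 1 fragment, gave estimated depths, in units of 1000000 fragments, of 48.3 to 51.0 in 10 libraries, Gill and Kidney among them, 20.2 to 22.6 in the barbels, Intestine, Olfactory_bulb, Retina and Telecephlon, 9.52 in Muscle and only 6.33 in Skin. That the value stands for 1 whole fragment is an assumption. On that estimate 1 fragment of C0J45_03739 is worth an FPKM of 0.55 in Skin and 0.069 in Gill. The Skin library stood apart in more than depth. The skeletal muscle list of 34 models summed to an FPKM of 5513 there, with 15 models at 10 or more and 7 at 0, against 54.6 and 23.6 in Mandibular_barbel and Maxillary_barbel. The keratinocyte list of 29 models summed to 6466 in Skin, 6891 in Gill, 31273 in Mandibular_barbel and 37608 in Maxillary_barbel. Most of the barbel sums was keratin 4 (C0J45_00982), at 21978 and 26435 there, 2331 in Skin and 2819 in Gill. By models at 10 or more the tissues were closer, with 15 in Skin, 17 in each barbel and 19 in Gill. In Skin, 2 of the 29 were at 0. A keratin outside the list, named below for its likeness to C0J45_03741, went the other way. This was type I cytokeratin, enveloping layer, like (C0J45_09361), at 7379 in Skin, 1937 in Maxillary_barbel, 1241 in Mandibular_barbel and 157 in Gill. The part of depth and of these list differences in the Skin values below was not tested.

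C0J45_03742 was the most abundant ictacalcin and was present in every tissue. Its FPKM was 9741 in Maxillary_barbel and 8729 in Mandibular_barbel, where it ranked 2 among all genes of each library. It was 2966 in Spleen, 2283 in Gill, 1758 in Testis and 1515 in Intestine. The barbels stood apart at the top. Spleen, a blood-filtering organ, and Gill were not separated: their FPKM differed by 0.38 log2 units, less than the SD between the barbels, and as a share of the library's summed FPKM Gill (0.438%) was above Spleen (0.388%).

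The middle range of C0J45_03742 held 871 in Heart, 789 in Skin, 584 in Kidney, 565 in Olfactory_bulb, 531 in Head_kidney and 391 in Retina. It was 285 in Telecephlon, 275 in Brain and 111 in Liver, and lowest in Pancreas (48.7), Muscle (39.98) and Ovary (28.7). Neighbours in this order often lay within the barbel yardstick, as Heart and Skin, Kidney and Olfactory_bulb, or Telecephlon and Brain did, and their order should not be read. The breadth of C0J45_03742 gave it a tau of 0.33, where tau runs from 0 for an even level in all tissues to 1 for a gene found in 1 tissue. Over the tissues between, the keratinocyte list summed to 3231 in Spleen, mostly from keratin, type II cytoskeletal 8 (C0J45_14630, FPKM 3113), and to 1480 in Testis. Fewer cells of a type and less RNA per cell cannot be told apart in such bulk tissue.

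C0J45_03739 was abundant in fewer tissues. Its FPKM was 4141 in Maxillary_barbel, 3776 in Mandibular_barbel and 2959 in Gill, ranking 11, 14 and 10 in those libraries. It was 42.003 in Intestine, 18.6 in Kidney, 12.9 in Skin, 12.5 in Testis, 5.54 in Olfactory_bulb and 2.51 in Spleen. Both barbels and Gill thus stood far above all other tissues.

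In the 9 remaining tissues C0J45_03739 stood between 0.026 in Muscle and 0.71 in Heart. The Muscle value was an estimated 0.070 fragments, where 1 fragment is worth an FPKM of 0.37, so it is not told apart from 0. Its tau was 0.76. The Skin value rested on about 23 fragments. The mean of both barbels was 8.15 log2 units above Skin for C0J45_03739 and 3.54 for C0J45_03742, where the median of the 7090 genes compared was 1.27 and 32.0% of them were at least 2 higher in the barbels. With libraries scaled to the same upper quartile, that median was 0.49, and 72.0% rather than 89.8% of the genes called in either direction were higher in the barbels. Only 2 of the 7090 genes had a larger difference in that direction than C0J45_03739.

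**Figure D2:**
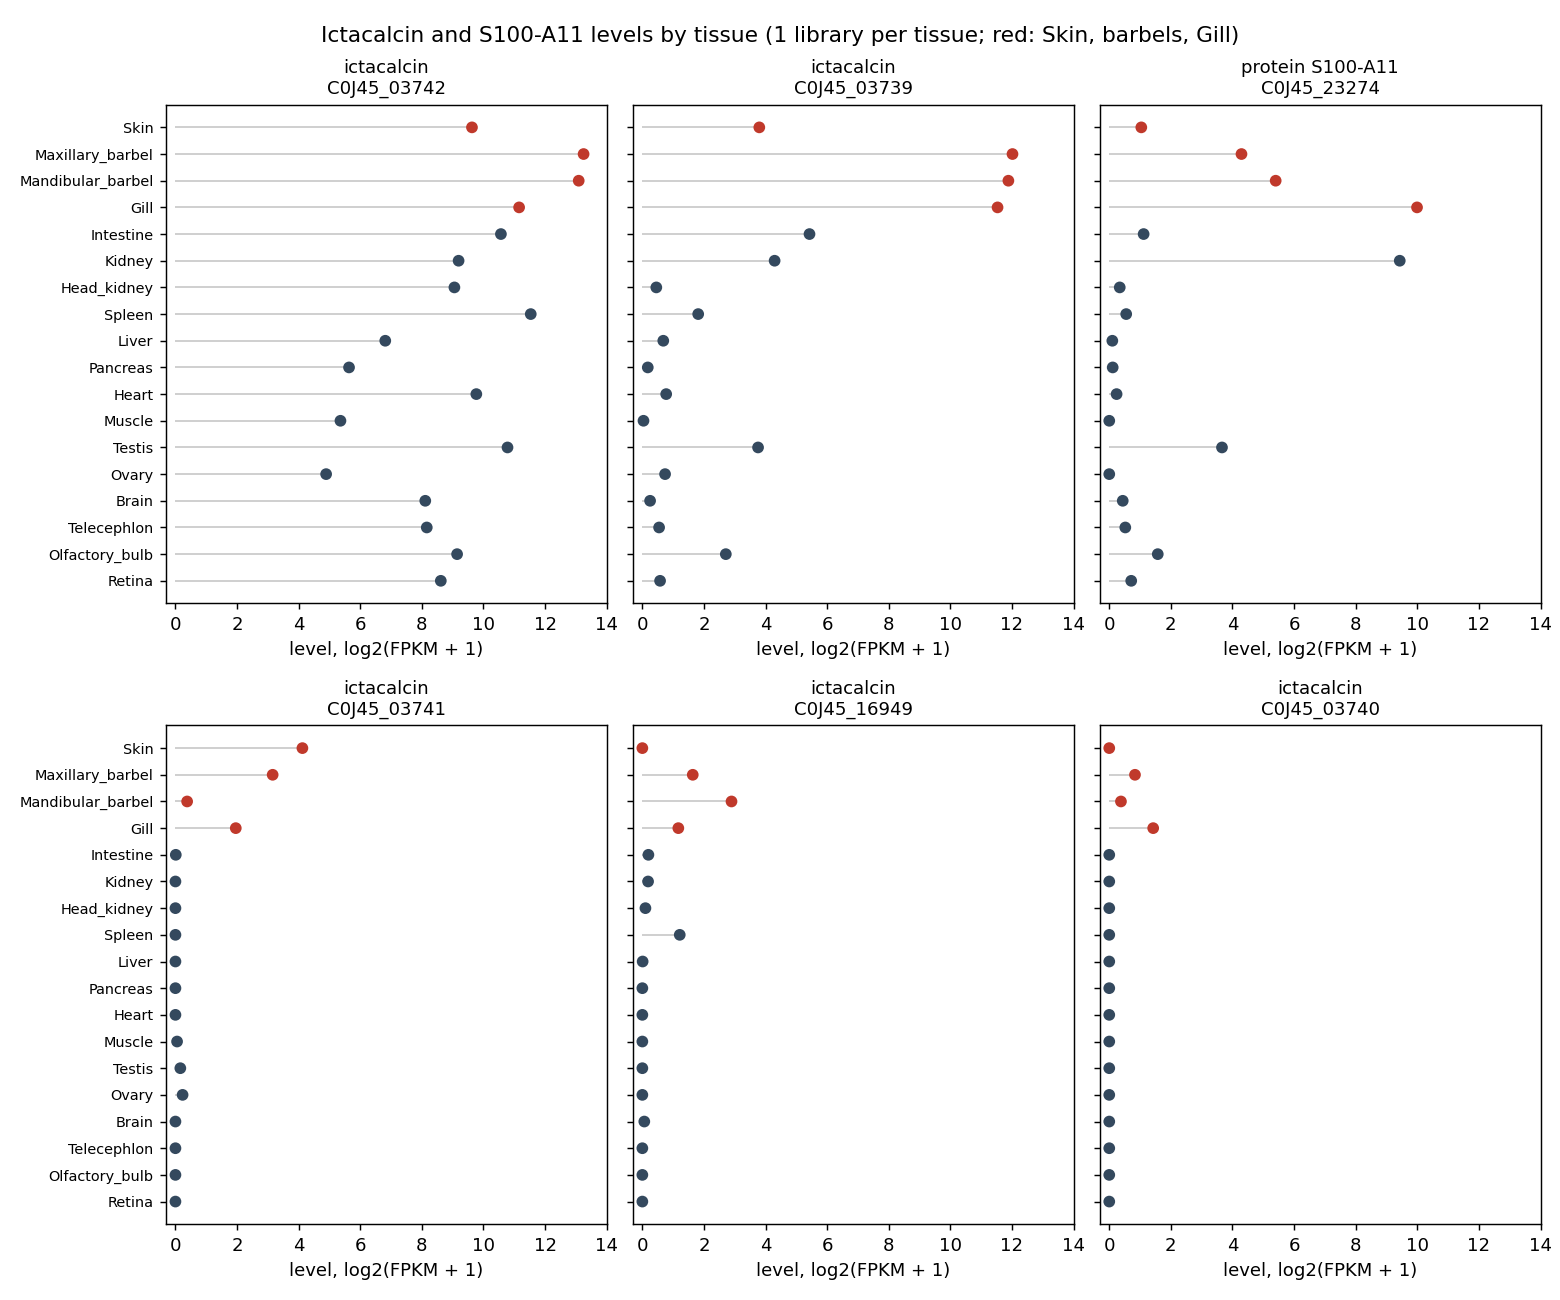
Level of each gene model on the horizontal axis, log2(FPKM + 1), in 18 tissues with 1 point per library, Skin, barbels and Gill in red. C0J45_03742 is above 4 in every tissue, C0J45_03739 is above 11 in the barbels and Gill only, and S100-A11 is above 9 in Gill and Kidney only.

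Within a library the ratio of the abundant ictacalcins does not depend on how libraries are scaled. C0J45_03739 was 1.296 times C0J45_03742 in Gill, 0.43 times in each barbel, and between 0.00065 (Muscle) and 0.032 (Kidney) times in the other 15 tissues. The Muscle ratio rests on an estimated 0.070 fragments of C0J45_03739, so that low end is uncertain. Gill was the only library in which C0J45_03739 had the higher FPKM. That order depends on the gene lengths behind the FPKM, which were not tested for these models. With coding lengths of 285 bp for C0J45_03739 and 435 bp for C0J45_03742, the estimated fragments in Gill were 43020 and 50660. In Skin the ratio was 0.016, below Intestine (0.028) and Kidney (0.032). The keratins that lead the keratinocyte list differed in direction between these tissues: keratin 92 (C0J45_18677) had an FPKM of 3039 in Skin and 85.7 in Gill, keratin 4 (C0J45_00982) 2331 and 2819, and keratin, type II cytoskeletal 8 (C0J45_14630) 92.4 and 1680.

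The summed FPKM of all 5 ictacalcins was 2.24% of the library total in Maxillary_barbel, 2.05% in Mandibular_barbel and 1.01% in Gill. It was 0.39% in Spleen, 0.23% in Intestine, 0.22% in Testis and 0.14% in Skin. Ovary was lowest at 0.0042%. C0J45_03739 made up 56.4% of that sum in Gill, 29.8% in Maxillary_barbel and 1.58% in Skin, and C0J45_03742 nearly all the rest.

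**Figure D3:**
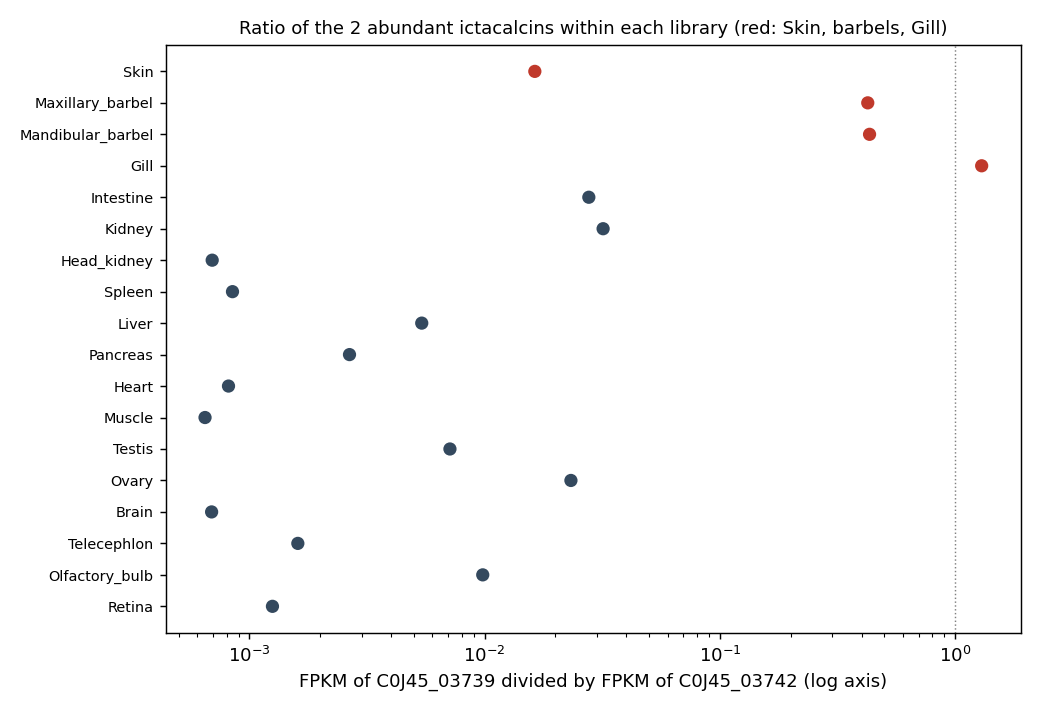
FPKM of C0J45_03739 divided by that of C0J45_03742 within each library, on a log axis, 1 point per tissue, with Skin, barbels and Gill in red and a dotted line at 1. Gill at 1.296 and the barbels at 0.43 lie apart from the other 15 tissues, Skin included, which are all at or below 0.032.

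S100-A11 (C0J45_23274) followed another pattern and was high in Gill and Kidney. Its FPKM was 1017 in Gill and 689 in Kidney, followed by 41.3 in Mandibular_barbel, 18.6 in Maxillary_barbel and 11.6 in Testis. All other tissues were below 2: Olfactory_bulb 1.98, Intestine 1.17, Skin 1.06 (about 2 fragments), Retina 0.64, Spleen 0.46, Telecephlon 0.43, Brain 0.35, Head_kidney 0.27, Heart 0.18, Pancreas 0.080 and Liver 0.071. Muscle and Ovary were listed at 0.

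The gap between Gill and Kidney for S100-A11 was 0.56 log2 units, against 0.72 for the limit within which 95% of genes differed between the barbels. With libraries scaled to the same sum the gap was 0.89, past that limit, and with equal upper quartiles 0.36, so whether it exceeds the yardstick depends on the scaling. Head_kidney, the blood-forming front part of the kidney, was at 0.27 beside Kidney at 689. S100-A11 was lower in Maxillary_barbel than in Mandibular_barbel by 1.11 log2 units. Of the 6538 genes compared, 1.47% were at least 1 lower and 1.44% at least 1 higher. C0J45_03739 (0.13) and C0J45_03742 (0.16) differed by less than the SD between the barbels. The barbels together lay 5.14 below Gill, where 8.13% of 8336 genes were at least 2 lower. C0J45_03742 was 2.01 higher in the barbels than in Gill (4.23% of genes at least 2 higher) and 1.77 higher with libraries scaled to the same sum, which is under the threshold of 2. C0J45_03739 differed by 0.42.

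Markers of ionocytes, the cells that move ions in gill and kidney, varied over the same tissues. Rh family, C glycoprotein a (C0J45_08767), an ammonia transporter, had an FPKM of 654 in Gill, 15.7 in Mandibular_barbel, 8.19 in Retina, 7.08 in Maxillary_barbel, 0.46 in Skin and 0.053 in Kidney. Ammonium transporter Rh type C-like 2 (C0J45_09915) was 232 in Gill and 50.5 in Kidney, and was listed at 0 in both barbels and Skin. V-type proton ATPase 16 kDa proteolipid subunit (C0J45_12915) was 146 in Gill and 176 in Kidney, but 728 in Telecephlon. The whole ionocyte list of 30 models, many of them proton pump subunits used by every cell, summed to 1691 in Gill, 936 in Kidney, 645 in Mandibular_barbel and 183 in Skin but was highest in Telecephlon at 3282. It was also above Kidney in Olfactory_bulb (2588), Brain (2543), Retina (2073), Head_kidney (1086) and Spleen (1022). S100-A11 was at 0.27 in Head_kidney and 0.46 in Spleen, so the list sum did not follow the S100-A11 order. The part of ionocyte content in the S100-A11 levels was not tested.

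The remaining ictacalcins were low. C0J45_03741 was highest in Skin with an FPKM of 16.4, then 7.91 in Maxillary_barbel, 2.89 in Gill and 0.30 in Mandibular_barbel. It was 0.17 or less in Ovary, Testis, Muscle and Intestine and listed at 0 in 10 tissues. It was thus the only one of the 6 with its highest value in Skin, on about 21 fragments there. It was also the only one lower in the barbels than in Skin by at least 2 (log2 difference -2.35, where 3.64% of genes were called in that direction). Nothing is read from that call, since C0J45_03741 passed the FPKM minimum there only through Skin. The barbel libraries differed by 2.78 log2 units for it, a model under the FPKM minimum of 10 in both.

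C0J45_16949 reached 6.43 in Mandibular_barbel, 2.11 in Maxillary_barbel, 1.32 in Spleen and 1.25 in Gill, was 0.15 or less in Intestine, Kidney, Head_kidney, Brain and Liver, and was listed at 0 in 9 tissues, Skin among them. C0J45_03740 was detected only in Gill (1.69), Maxillary_barbel (0.78) and Mandibular_barbel (0.30), the 3 tissues in which C0J45_03739, of the same structure, was highest. All other tissues were at 0. Whether its few reads came from C0J45_03739 was not tested.

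Across water-facing tissues (Skin, barbels and Gill) against the other 14, 4 of the 6 models passed the FPKM minimum of 10 in some library. The difference in median log2(FPKM + 1) was 10.999 for C0J45_03739, 4.37 for S100-A11, 3.29 for C0J45_03742 and 2.56 for C0J45_03741. All of these 4 were past the difference of 2 that 10% of 15292 genes reached, while 0.432% were at least 2 lower. The choice of the listed genes and the filter both favour that outcome, so nothing is read from the count. The median over all genes was 0.23. C0J45_03741 was at 1.96 without the Skin library and at 1.97 with equal upper quartiles, both under the threshold. C0J45_03740 (0.61) and C0J45_16949 (1.40) did not pass the minimum. The 4 water-facing tissues lay above all 14 others without overlap for C0J45_03741 alone, where 2.31% of genes did so. Nothing is read from that, since C0J45_03741 passed the minimum only through Skin, and its lowest water-facing value, in Mandibular_barbel, rested on an estimated 1.2 fragments against 1.7 in Ovary. For C0J45_03739 Skin lay below Intestine and Kidney, for C0J45_03742 Skin lay below Spleen, Testis and Intestine, and for S100-A11 every water-facing tissue but Gill lay below Kidney.

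The gut lining is another large epithelium in the set. Against the median of the 13 remaining internal tissues, Intestine was higher by 4.75 for C0J45_03739, by 1.95 for C0J45_03742, by 0.68 for S100-A11 and by 0.011 for C0J45_03741, and 11.7% of genes were at least 2 higher and 0.209% lower. C0J45_03739 alone among the 4 passed that threshold. Kidney, where S100-A11 had an FPKM of 689 against 1.17 in Intestine, is among the 13 tissues of that median. The 12 enterocyte markers summed to 2320 in Intestine.

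The rest of the S100 family, taken by product name, held 10 further models, of which 7 passed the minimum. Among these 7, 4 were at least 2 log2 units higher in the water-facing tissues and 0 lower, with a median difference of 2.11, where 10% of all 15292 genes were higher and their median was 0.23. With libraries scaled to the same sum 3 of the 7 were, beside 10.6% of all genes, and with equal upper quartiles 3, beside 6.81%. The 4 were S100 calcium binding protein U (C0J45_23275, 4.38), protein S100-A14 (C0J45_23544, 3.85) and both S100 calcium binding protein A10b models (C0J45_23287, 3.01, and C0J45_03744, 2.11), A10 being the annexin A2 partner that lacks calcium binding in mammals. Of the A10b models, C0J45_23287 was highest in Intestine, at an FPKM of 354. It was 122 in Maxillary_barbel, 118 in Testis, 89.5 in Kidney, 41.6 in Gill, 26.7 in Mandibular_barbel and 20.3 in Skin. C0J45_03744 was 911 in Gill and 894 and 860 in the barbels, but Spleen (621), Testis (502) and Heart (501) lay above Skin (204). S100-A14 had an FPKM of 1032 in Mandibular_barbel, 1028 in Maxillary_barbel, 389 in Gill, 300 in Testis and 244 in Skin. Spleen was at 129.

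S100 calcium binding protein U, the neighbour of S100-A11, was 344 in Gill, 298 and 294 in the barbels and 146 in Intestine, but only 18.02 in Kidney, where S100-A11 was 689. S100 calcium binding protein S, the next gene along, was highest in Skin at 20.2 against 2.40 or less elsewhere. C0J45_03741 was also highest in Skin, but with a smaller lead, at 16.4 against 7.91 in Maxillary_barbel. The neighbouring genes of that block thus peaked in Gill with Kidney, in Gill with the barbels, and in Skin.

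The remaining S100 genes were highest in neural tissues or Ovary. S100-B (C0J45_22184), a marker of glia in mammals, was 1518 in Brain, 1262 in Olfactory_bulb and 431 in Telecephlon and at 0 in Skin. One S100-A1 model (C0J45_04099) was 1011 in Ovary and 14.9 in Olfactory_bulb, and S100-Z (C0J45_13672) reached 7.89 in Olfactory_bulb. S100-T and the other S100-A1 stayed under an FPKM of 3.

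**Figure D4:**
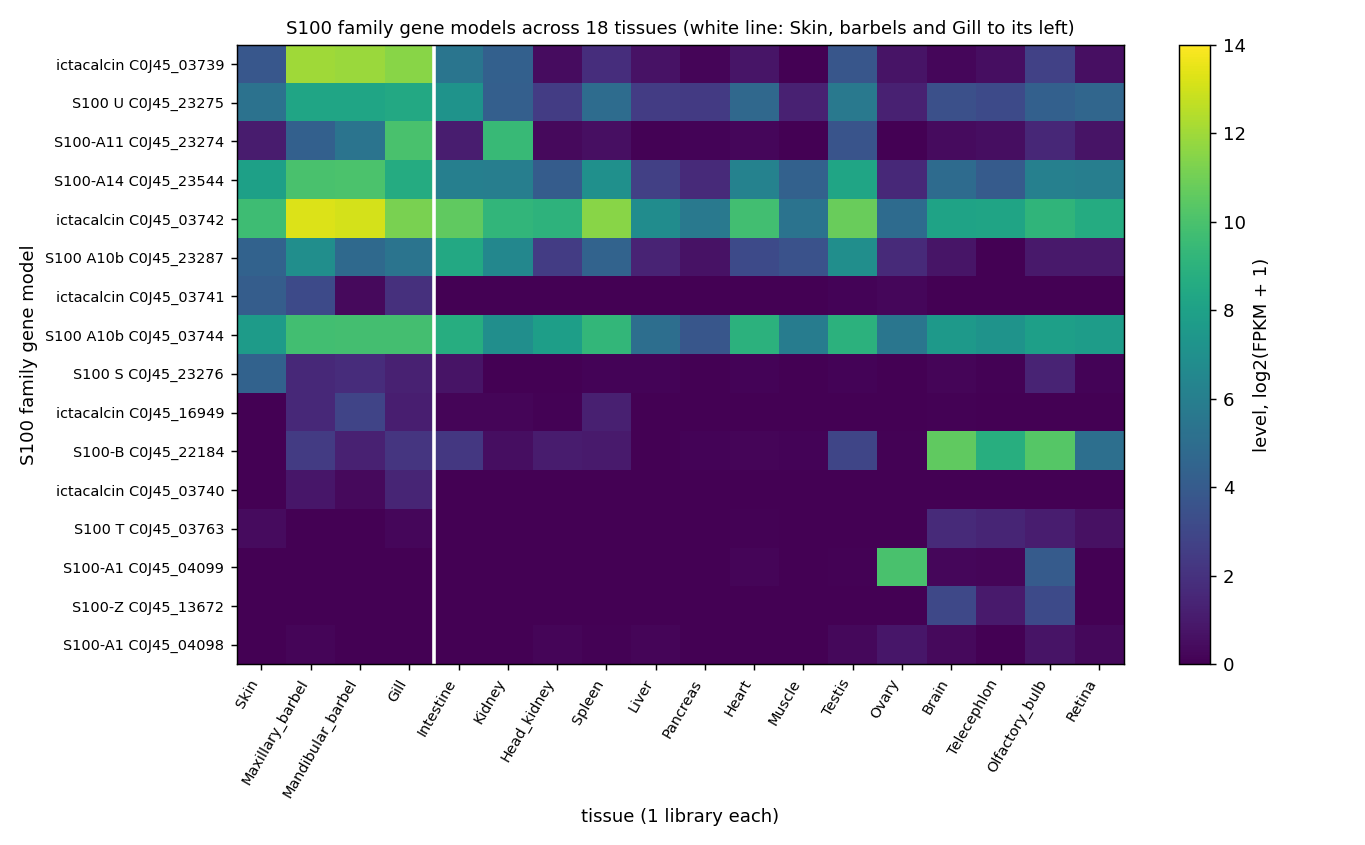
Levels of the 16 S100 family gene models (rows, ordered by the difference between water-facing and other tissues) in 18 libraries (columns), coloured by log2(FPKM + 1), with Skin, barbels and Gill left of the white line. Ictacalcin C0J45_03739 and S100-A11 are bright in few columns, C0J45_03742 and the A10b model C0J45_03744 across many, and S100-B is brightest in the neural columns.

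Models with an S100 motif but another product name were counted after their values had been seen, and 2 of 8 were abundant. C0J45_03743, the unnamed model beside C0J45_03742, had an FPKM of 6691 in Mandibular_barbel, 5470 in Maxillary_barbel, 1592 in Gill, 277 in Skin and 75.8 in Olfactory_bulb, and was below 4 in every other tissue. In Skin it was far above C0J45_03739, at 12.9. C0J45_03762, also unnamed and also on chromosome 4, was 519 and 515 in the barbels, 194 in Gill, 166 in Spleen and 136 in Skin.

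Annexins, the membrane-binding partners, numbered 16 models, of which 15 passed the minimum. Among them 6 were higher in the water-facing tissues and 0 lower, with a median difference of 1.69, where 10% of all genes were higher and their median was 0.23. With equal upper quartiles 6 were higher and 1 lower with a median of 0.52, beside 6.81% of all genes and a median of 0. The most abundant was annexin A1 (C0J45_19063) at an FPKM of 3485 in Gill, 2996 and 2686 in the barbels, 1791 in Testis, 716 in Spleen, 702 in Ovary and 353 in Skin. Kidney, the second tissue of S100-A11, had annexin A1 at 134.

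Annexin A2a (C0J45_09817), the partner of S100-A10 in mammals, was 628 in Gill, 530 in Spleen, 483 and 403 in the barbels, 445 in Testis and 176 in Skin. By difference between the groups annexin A3b (C0J45_10398) came first (6.60), at 385 and 352 in the barbels, 295 in Gill, 160 in Skin and 108 in Ovary. Annexin A1c (C0J45_21164, 6.14), annexin A1 (4.22), 2 annexin A5 models (C0J45_03456, 3.86, and C0J45_23186, 3.66) and annexin A2a (C0J45_09817, 2.56) followed. Annexin A1c was 145 in Gill and 81.4 in Mandibular_barbel, but Ovary (69.1) lay above Maxillary_barbel (60.3) and Skin (8.12). The annexin A5 models were short, at 303 and 264 coding bp. A second annexin A2a model (C0J45_02416) was highest in Intestine at 166, followed by Kidney at 13.4.

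Calcium-binding EF-hand proteins outside the S100 family gave a smaller median. Of 14 models that passed, among them calmodulins and parvalbumins, 2 were higher in the water-facing tissues and 0 lower, with a median of 0.39. That count is near the share of all genes, 10%. The highest of them there was calpain small subunit 1 (C0J45_11494), the regulatory part of a calcium-dependent protease, at 494 in Mandibular_barbel and 310 in Gill. The marker lists read against the same 10% and the all-gene median of 0.23 for the deposited values with a pseudocount of 1. With equal upper quartiles that share was 6.81% and that median 0, and with a pseudocount of 0.1 they were 13.9% and 0.33. With libraries scaled to the same sum they were 10.6% and 0.32, and without Skin the all-gene median was 0.28. The keratinocyte list had 17 of 25 models higher and 0 lower, with a median of 4.39. The mucous cell list had 6 of 15, with a median of 0.89 that was 1.904 without the Skin library and 0.36 with equal upper quartiles. The fibroblast list had 5 of 5 (median 2.30), but 1 of 5 with equal upper quartiles (1.11). The enterocyte list had 2 of 10 (1.303) and 6 of 10 with a pseudocount of 0.1 (2.34). The skeletal muscle list had 2 of 23 (0.49), 3 with libraries scaled to the same sum and 6 with a pseudocount of 0.1, and its median was -0.011 without Skin. The granulocyte and macrophage list had 3 of 10 (-0.30) and 1 with equal upper quartiles, and its median was 0.14 without Skin. The gill ionocyte list had 2 of 27 (-0.075), 1 with equal upper quartiles and 4 with a pseudocount of 0.1. In the taste cell (1 model tested, median 0.18), erythroid (8, -0.80) and neuron (11, -0.15) lists 0 were higher. Without Skin the erythroid median was 0.17 and the taste cell value -0.040.

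The genes most like each ictacalcin and S100-A11 in pattern were found by Pearson's r of log2(FPKM + 1) over the 18 libraries, among 15292 genes and outside the S100 family. Whether libraries share a fish is not given, and they fall into depth groups, so r is a description with no test. C0J45_03739 was closest to magnesium transporter NIPA4 (C0J45_14068, r = 0.991), whose human gene is known from an inherited scaling disorder of the skin, and to the tight junction protein claudin-23 (C0J45_10992, 0.986). Claudin-23 had an FPKM of 105 in Gill, 74.2 and 70.9 in the barbels and 2.08 in Skin. Next came bloodthirsty-related gene family, member 12 (C0J45_23072, 0.978), phospholipid-transporting ATPase IC (C0J45_19222, 0.973) and guanine nucleotide binding protein alpha 15 (C0J45_08555, 0.971). All of these 5 were below 5 in Skin.

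S100-A11 was closest to T-lymphocyte maturation-associated protein-like (C0J45_08477, 0.967), claudin 17 (C0J45_11147, 0.964) and transient receptor potential cation channel subfamily V member 6 (C0J45_03837, 0.954), a calcium entry channel of transporting epithelia. Forkhead box protein I1 (C0J45_04968, 0.947), a transcription factor known in mammals from the intercalated cells of the kidney, followed, then protocadherin 20 (C0J45_04839, 0.942). The channel had an FPKM of 31.4 in Gill, 19.4 in Kidney and 10.3 in Mandibular_barbel, and forkhead box protein I1 of 35.9, 8.91 and 6.81.

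C0J45_03742 was closest to extracellular superoxide dismutase (C0J45_01137, 0.948), matrix metalloproteinase-14 (C0J45_06385, 0.945), retinoic acid receptor gamma-A (C0J45_14873, 0.933), abl interactor 1 (C0J45_04507, 0.932) and annexin A2a (C0J45_09817, 0.925). C0J45_03741 had looser companions that peaked in Skin. These were 2 NACHT, LRR and PYD domains-containing proteins (C0J45_24072 and C0J45_04569, 0.892 and 0.891), C-C chemokine receptor type 5-like (C0J45_03519, 0.886), TSC22 domain family protein 1 (C0J45_08721, 0.873) and type I cytokeratin, enveloping layer, like (C0J45_09361, 0.868). That cytokeratin had an FPKM of 7379 in Skin. With Spearman's rank correlation 0 of these 5 nearest genes were kept for C0J45_03739, C0J45_03741 and S100-A11 and 1 for C0J45_03742, so the names depend on the measure of likeness.

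Within the family, C0J45_03742 ran closest to S100-A14 (r = 0.919), A10b (C0J45_03744, 0.917) and S100 calcium binding protein U (0.909), and less close to its cluster neighbour C0J45_03739 (0.770). C0J45_03739 ran closest to S100 calcium binding protein U (0.889), C0J45_03741 to S100 calcium binding protein S (0.848), and S100-A11 to C0J45_03739 (0.742).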

How the data were processed

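Polyadenylated RNA of 18 adult tissues was sequenced, per the labels' protocols, after Trizol extraction, DNase treatment and paired-end library preparation, with 1 sample per tissue. The authors deposited FPKM values of 25390 gene models. StringTie 1.3.4d is named in the submitters' processing notes, while no aligner or build is named in the labels or file headers. A deposited feature table gave names, 1-based positions and coding exons, in which all lengths were multiples of 3 (100%), so untranslated parts are not in the lengths.

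FPKM are not counts, and no test was run. Depth came from the most frequent low value of FPKM times coding length, assumed to be 1 fragment, and does not give whole reads. In Skin 209 models of 114 to 10866 coding bp shared that product, while at most 38 shared an FPKM, so coding lengths fit the authors' values for these models. For the ictacalcins and S100-A11 the length used was not tested, and another length would change their fragment estimates and ratios. Genes entered comparisons at an FPKM of at least 10 and were called at a log2 difference of 2 (1 between barbels), with a pseudocount of 1. Tau used log2(FPKM + 1). Genes named were the ictacalcins, S100-A11, the S100 and annexin families, the 5 most similar genes of each, and up to 3 of each marker list by level. Product names that only contain these words (pannexins, calcyclin-binding protein) were not counted. The marker lists were matched by product name after the table had been opened. These genes, lists and rules were chosen with earlier results of these data known. The difference between water-facing and other tissues, tau and the ranking by likeness were tested on simulated data, and the other comparisons were not. Python 3.11.15, numpy 2.4.6, pandas 2.3.3 and matplotlib 3.10.9 were used.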

Additional observations from a re-analysis of the deposited data

How the results depend on the processing

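No direction of a called value reversed. With 1 library per tissue, a value counts as moved when it shifts by more than 0.42 (log2), the SD between the barbels, or 0.0078 for tau, and a count when it changes by over 1.5 times, and the cause was not tested unless the setting itself shows it. No paired analysis was possible because each tissue is 1 library. Settings for barbels against Skin or Gill and for Intestine were chosen after seeing the data. Genes at or near 0 depend on the pseudocount by construction, and Skin's depth limits its low values.

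The difference between water-facing and other tissues with a pseudocount of 0.1 was 12.15 for C0J45_03739, 2.57 for C0J45_03740, 5.61 for C0J45_03741, 4.11 for C0J45_16949 and 5.82 for S100-A11. With equal upper quartiles it was 9.98 for C0J45_03739, 1.97 for C0J45_03741 and 3.82 for S100-A11, and the median of all genes went from 0.23 to 0. Without Skin it was 1.96 for C0J45_03741, 4.26 for C0J45_03742 and 4.92 for S100-A11. With Intestine counted as water-facing these were 1.96, 2.54 and 3.85, and with Gill not counted 3.16, 4.26 and 3.81. With the barbels averaged C0J45_03742 was at 2.32. The highest tissue exceeded the next by 1.67 (equal upper quartiles), 1.77 (barbels averaged) and 1.20 (without Skin, Maxillary_barbel over Gill) for C0J45_03741, and by 1.64 (barbels averaged, over Spleen) for C0J45_03742.

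Tau with a pseudocount of 0.1 was 0.655 for C0J45_03739, 0.869 for C0J45_03741, 0.262 for C0J45_03742 and 0.724 for S100-A11. With equal upper quartiles it was 0.927 for C0J45_03741 and 0.289 for C0J45_03742, and without Skin 0.945 for C0J45_03741. Between the barbels C0J45_03741 differed by 4.32 (pseudocount 0.1) or 2.34 (equal upper quartiles). Barbels against Skin gave -3.20 for C0J45_03741 and 4.59 for S100-A11 with a pseudocount of 0.1, and 7.32 for C0J45_03739, -2.84 for C0J45_03741, 2.70 for C0J45_03742 and 3.06 for S100-A11 with equal upper quartiles. Barbels against Gill gave -0.74 for C0J45_03741 with a pseudocount of 0.1. Intestine gave 5.91 for C0J45_03739 and 1.48 for S100-A11 with a pseudocount of 0.1, and 4.12 for C0J45_03739 with equal upper quartiles.

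Of the 5 most similar genes, Spearman's correlation kept 0 for C0J45_03739, C0J45_03741 and S100-A11 and 1 for C0J45_03742. A pseudocount of 0.1 kept 2 for C0J45_03741, 1 for C0J45_03742 and 3 for S100-A11, leaving out Skin kept 2 for C0J45_03739, 0 for C0J45_03741 and 2 for C0J45_03742, and averaging the barbels kept 3 for C0J45_03741. Over all genes, 1529 were higher and 66 lower in the water-facing tissues, against 1041 and 117 with equal upper quartiles and 2124 and 391 with a pseudocount of 0.1. Barbels against Skin gave 2266 higher and 258 lower, against 1182 and 459 with equal upper quartiles. Of 4 genes called higher, 3 remained at a difference of 3 or with equal upper quartiles (C0J45_03741 was lost), and 4 with weaker filters. The other 92 values either moved by less than the limits above or, for the most similar genes, kept at least 4 of 5.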
